A study of Homo sapiens with 6 samples.

Results

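The 55 genes described here carry the cell from G1 into S phase and copy its DNA, and they were chosen by name, as listed members of origin licensing, the replicative helicase, the polymerases, nucleotide supply, the G1 cyclins and the E2F factors. All 55 had a row in the expression table of 58735 genes, and 54 of them reached the mean level needed for the test. The remaining member was POLA2. In HCT116SCs transfected with siPSCA, transcripts of 30 of the 54 tested genes were higher than in NC cells and those of 4 were lower. That is 55.6% and 7.41% of these genes, beside 26.6% and 24.2% of all genes tested in the table. The higher members ran from the cyclin D genes and CDK4 and CDK6 through CDT1 and 5 of the 6 MCM2-7 subunits to the lagging-strand genes FEN1 and LIG1. The 4 lower members were ORC2, ORC3, ORC4 and RFC1. None of these 4 was called lower once a trend of the values with GC content and gene length had been removed.

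HCT116SCs are CD44+CD326+ cells that were enriched by magnetic sorting from the human colorectal cancer line HCT116, and they were grown as tumor spheres without serum, with EGF, bFGF and B27. Spheres were dissociated and transfected with NC siRNA or with siRNA against PSCA, which encodes a membrane protein of the Ly6 family, and RNA was taken 48 h later. The 6 libraries fall into 3 NC and 3 siPSCA libraries of this one line. The labels list 3 PSCA siRNAs but not which of them was sequenced, and nothing states that replicates came from separate cultures, so p-values measure only the spread between these libraries.

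In G1, cyclin D with CDK4 or CDK6 and then cyclin E with CDK2 phosphorylate RB, which frees E2F factors to switch on genes for DNA synthesis. Origins are licensed when the origin recognition complex (ORC), with CDC6 and CDT1, loads the MCM2-7 ring onto DNA, and geminin (GMNN) holds CDT1 back once S phase has begun. CDC45 and the GINS complex turn the loaded ring into an active helicase. Polymerase alpha with primase then starts each strand, polymerases delta and epsilon extend it, PCNA clamps them to DNA after loading by RFC, RPA coats the exposed single strands, and FEN1 and LIG1 finish the lagging strand.

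Values are FPKM, which scale reads by gene length and by library size but not by GC content. Levels of different genes are set side by side on this scale with that limit. The libraries held 16099716 to 17302219 reads on genes, and mitochondrial transcripts took 6.33% to 7.95% of them. NC 3 had the lowest mitochondrial share and stood apart from the other 5: its median gene lay 0.088 below the mean of the 6 libraries on the log2 scale, while the others lay 0.0046 to 0.028 above it. Results without NC 3 are also given for some of the genes that it moves, but not for all of them. PSCA itself was nearly silent: it had 4, 12 and 15 reads in NC 1, 2 and 3 and 9, 9 and 7 in siPSCA 1, 2 and 3, so that a reduction of its transcript was not detectable at this depth. All 6 epithelial markers were expressed, with summed levels of 805 to 866 FPKM in NC and 857 to 886 FPKM in siPSCA; KRT8 and KRT19 were higher, and CD44 and CDH1 lower, in siPSCA. None of 5 leukocyte markers reached a mean of 1 FPKM, their sums were 0.0977 to 0.256 FPKM in NC and 0.0761 to 0.377 FPKM in siPSCA, and CD3E and CD68 had no read in any library. Of 6 markers of stroma and endothelium only COL1A1 reached 1 FPKM, and the sums were 3.64 to 5.95 FPKM in NC and 6.26 to 6.85 FPKM in siPSCA with no marker called.

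Across all 13796 tested genes, 50.7% passed an adjusted p of 0.05 in limma, with 26.6% higher and 24.2% lower in siPSCA, and the median log2 fold change was 0.0091. Against that background, 63.0% of the tested replication and G1/S genes passed, 55.6% higher and 7.41% lower, and 20 did not pass. Their median log2 fold change was 0.23, from -0.38 for RFC1 to 0.98 for CDT1, and 43 of the 54 were above 0. All fold changes compare siPSCA with NC on the log2(FPKM + 1) scale, which understates the change of genes at low levels. The libraries of the 2 groups did not overlap for 37 of the 54 genes, or 68.5%, against 64.5% of all tested genes, with 33 members higher and 4 lower beside 33.7% and 30.8% of all genes. The counts by role below are to be read beside these shares of all genes. For a gene without overlap the two-sided exact permutation test of its 6 values gave p = 0.1, the smallest p that 3 libraries against 3 allow. Under an unadjusted limma p of 0.05 with a log2 fold change beyond 0.5, 14 of the 54 members passed, a share close to the 24.9% of all genes that passed. All 14 were higher, whereas 14.7% of all genes passed as higher and 10.2% as lower. Without NC 3, 34 members were higher and 4 lower, beside 29.2% and 24.6% of all genes (53.8% called). These are bulk RNA samples, so a change in the number of cells in a given phase of the cycle and a change in RNA per cell cannot be told apart. Summed over all 55 members, the level was 1087, 1093 and 1119 FPKM in the NC libraries and 1425, 1404 and 1407 FPKM in the siPSCA libraries. The sum was thus 1.28 times higher in siPSCA and did not overlap between groups.

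**Figure D1:**
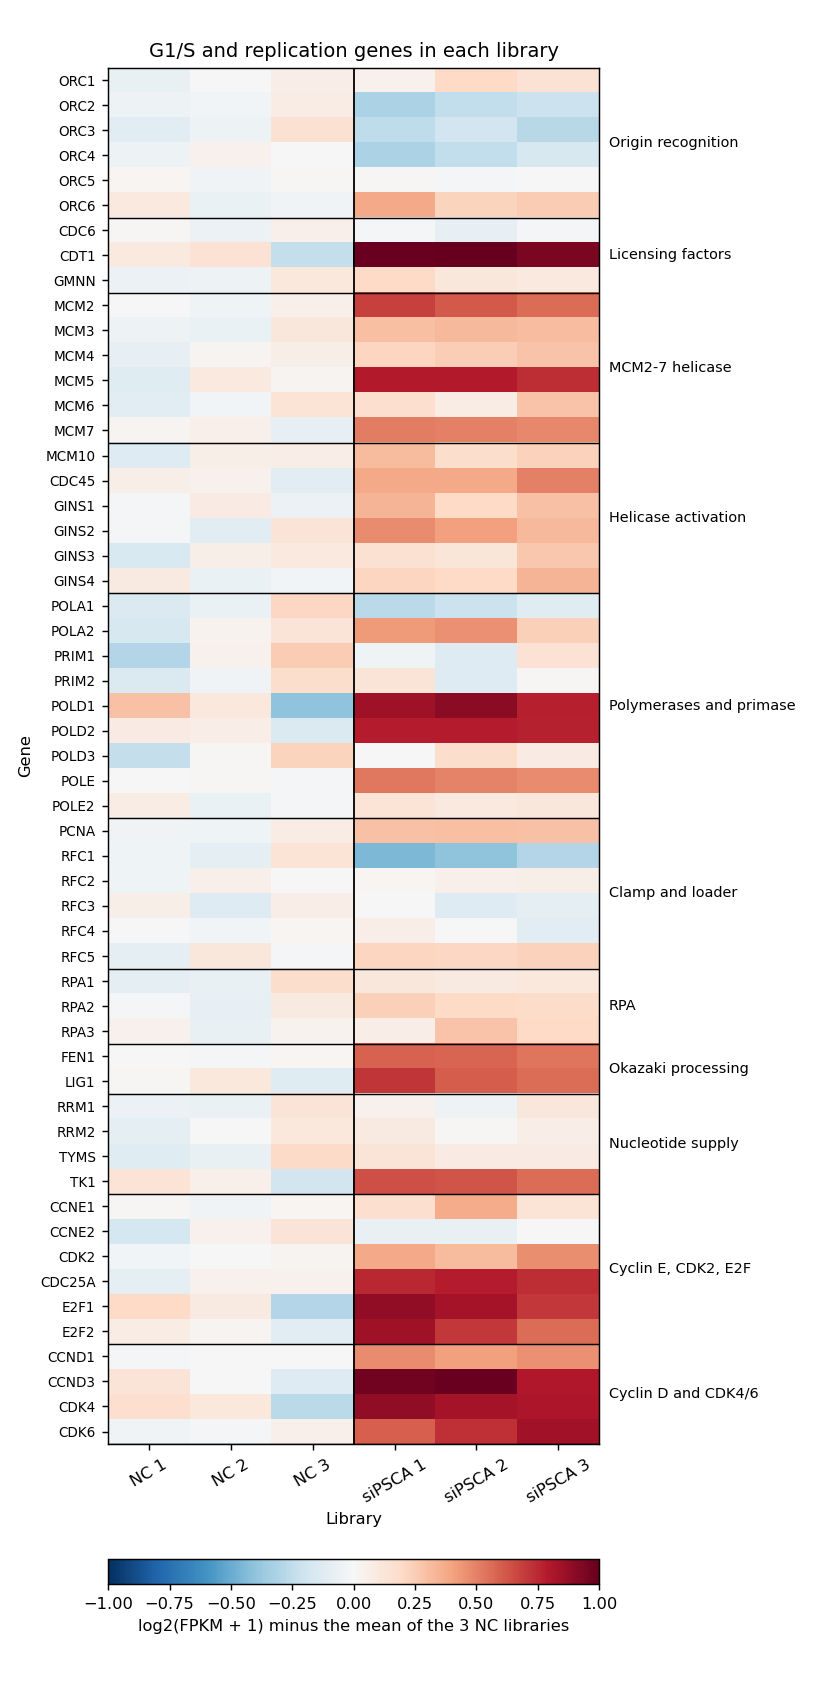
Each row is one of the 55 genes, grouped by role, and each column one library. Colour gives log2(FPKM + 1) minus the mean of the 3 NC libraries, from blue (lower) to red (higher). The CCND3, CDK4, CDC25A, E2F1, POLD1, MCM5 and CDT1 rows are deep red in all 3 siPSCA libraries, whereas ORC2, ORC3, ORC4 and RFC1 are blue in all 3.

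Base composition and fold change went together, in these genes as in the whole table. Over all tested genes with a known sequence (13792), the log2 fold change and the GC content of the longest transcript had a Spearman rho of 0.66, and over the 54 members rho was 0.79, both given as descriptions across genes that share the same 6 libraries. The 30 higher members had a median GC content of 52.3%, the 4 lower members 39.8% and the 20 others 43.6%, while the median was 48.0% over the tested members and 48.1% over all tested genes. All 12 members with 55% GC or more were higher, with a median log2 fold change of 0.74 against 0.45 for all genes in that range. Of all genes in that range, 58.9% were higher and 3.09% lower. Among the 22 members between 45% and 55% GC, 14 were higher and none lower, beside 24.0% and 15.8% of all genes. The medians were 0.25 for the members and 0.046 for all genes. Among the 20 members under 45% GC, 4 were higher and 4 lower, beside 4.64% and 47.1% of all genes. The median there was 0.018 against -0.25 for all genes. In each range the members' median thus lay above that of all genes. After a smooth trend on GC and length had been taken out of each library, 38 members were higher and none lower, beside 23.6% and 16.5% of all genes (40.0% called). The members' median was then 0.27 and that of all genes 0.050, and 52 of 54 members were above 0. ORC2, ORC3, ORC4, RFC1, TK1 and CCNE1 lost their call, and ORC5, GMNN, MCM6, GINS3, PRIM2, POLD3, POLE2, RRM1, RRM2 and CCNE2, not called with the trend left in, passed. With NC 3 left out as well, 39 members were higher and none lower, beside 24.5% and 18.6% of all genes (43.2% called). GC content moved with the fold changes in these libraries, and its part in them was not tested beyond the removal of this trend.

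E2F is a family of factors that bind promoters of S phase genes, and the letters of its motif were common in the promoters of these genes. RefSeq promoter windows on GRCh38.p14, from 250 bases before to 50 after the start, were at hand for 46 of the 55 members. The motif was searched on both strands in 4 spellings, TTTCCCGC, TTTCGCGC, TTTGCCGC and TTTGGCGC, where TTTCGCGC and TTTGGCGC can overlap on opposite strands. At least 1 match lay in the windows of 22 members (47.8%) and of 3.99% of all 27305 gene symbols with a window. The 22 included CDC25A, CDT1, E2F1, E2F2, LIG1, MCM2, MCM3, MCM6, MCM7, PCNA and POLE. Of the 21 tested members with a match, 12 were higher and 1 lower, with a median log2 fold change of 0.30, and of the 24 without a match, 12 were higher and 3 lower, with a median of 0.17; after removal of the GC and length trend the medians were 0.30 and 0.22. A match is a run of letters and not a measured binding site. The 8 windows of 30 bases below are those with a match upstream of the start and outside every annotated exon, 5′ to 3′ on the strand of the gene, with the matching letters in capitals.
MCM6, chr2:135876575-135876604, minus strand: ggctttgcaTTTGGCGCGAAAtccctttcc
MCM6, chr2:135876513-135876542, minus strand: ttggtcaggTTTGGCGCGAAAtctccagct
MCM3, chr6:52284898-52284927, minus strand: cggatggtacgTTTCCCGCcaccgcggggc
CDC25A, chr3:48188443-48188472, minus strand: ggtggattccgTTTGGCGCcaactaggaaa
E2F2, chr1:23531257-23531286, minus strand: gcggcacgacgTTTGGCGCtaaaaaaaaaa
GMNN, chr6:24775322-24775351, plus strand: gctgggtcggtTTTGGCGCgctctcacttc
PCNA, chr20:5126663-5126692, minus strand: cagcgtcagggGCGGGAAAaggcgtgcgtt
POLA1, chrX:24693770-24693799, plus strand: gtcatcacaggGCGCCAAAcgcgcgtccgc
The genes behind these windows did not move alike. CDC25A, E2F2, MCM3 and PCNA were higher in siPSCA, with log2 fold changes of 0.76, 0.70, 0.31 and 0.30, whereas MCM6, GMNN and POLA1 did not pass the test, at 0.18, 0.14 and -0.20. In MCM6 the 12 capitals hold TTTGGCGC on the gene's strand and TTTCGCGC on the opposite strand, and the same run begins at 152 and at 90 bases before the start.

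The cyclin D and CDK4/6 genes, which start the passage from G1, had the largest median log2 fold change of the 11 roles, 0.78, and all 4 of them, CCND1, CCND3, CDK4 and CDK6, were higher in siPSCA. CCND1 (ENSG00000110092, chr11:69641087-69654474), which encodes cyclin D1, gave 101, 102 and 102 FPKM in NC 1, 2 and 3 and 141, 135 and 140.0 FPKM in siPSCA 1, 2 and 3. Each siPSCA library lay above each NC library, and the means were 102 ± 0.511 and 139 ± 3.08 FPKM (SD, n = 3). Its log2 fold change was 0.44 (SE 0.041, adjusted p = 0.000963 in limma). CCND3 (ENSG00000112576, chr6:41934933-42050357), encoding cyclin D3, was far less abundant, at 4.38, 3.92 and 3.49 FPKM in NC and 8.60, 8.73 and 7.59 FPKM in siPSCA. Its levels did not overlap either, and the log2 fold change of 0.92 (SE 0.089, limma adjusted p = 0.00108) was the second largest of all members. The ratio of CCND1 to CCND3 within a library therefore moved from 26.1 ± 3.05 in NC to 16.8 ± 1.51 in siPSCA (SD, n = 3). This ratio and the other ratios and sums within a library were chosen after the values had been seen and were not tested.

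CDK4 and CDK6 encode the kinases that cyclin D activates. CDK4 (ENSG00000135446, chr12:57747727-57756013) gave 21.9, 21.0 and 15.9 FPKM in the NC libraries and 36.8, 35.5 and 34.8 FPKM in the siPSCA libraries. NC 3 was the lowest, and without it the log2 fold change went from 0.84 (SE 0.12, limma adjusted p = 0.00272) to 0.71. TSPAN31, on the opposite strand, covers 43.2% of the exonic bases of CDK4 and held 16.5% as many reads, and the strand of counting is not stated, so reads of these 2 genes may be mixed. CDK6 (ENSG00000105810, chr7:92604921-92836594) gave 10.2, 10.4 and 10.9 FPKM in NC and 16.4, 18.1 and 19.6 FPKM in siPSCA, a log2 fold change of 0.72 (SE 0.074, limma adjusted p = 0.00125). Its transcript is poor in GC (39.5%), unlike most of the genes that rose, and after removal of the GC and length trend its log2 fold change was 1.13, the largest of all members. The ratio of CDK4 to CDK6 overlapped between groups (1.87 ± 0.365 in NC and 1.99 ± 0.239 in siPSCA, SD, n = 3).

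Of the 6 members for cyclin E, CDK2, its activator CDC25A and the E2F factors, 5 were higher and CCNE2 did not pass, with a median log2 fold change of 0.55. CDC25A (ENSG00000164045, chr3:48157146-48188402), the phosphatase that removes the inhibitory phosphates of CDK2, gave 5.98, 6.67 and 6.65 FPKM in NC and 11.5, 11.8 and 11.4 FPKM in siPSCA. It rose by 79.8%, with a log2 fold change of 0.76 (SE 0.058, limma adjusted p = 0.00063) that remained 0.65 after removal of the GC and length trend. E2F1 (ENSG00000101412, chr20:33675683-33686404), an activator of S phase genes, gave 9.08, 8.33 and 6.17 FPKM in NC and 15.2, 14.6 and 13.3 FPKM in siPSCA. The groups did not overlap, NC 3 was again the lowest library, and the log2 fold change of 0.81 (SE 0.13, limma adjusted p = 0.00457) was 0.28 after removal of the trend and 0.66 without NC 3. E2F2 (ENSG00000007968, chr1:23506430-23531220), a close relative of E2F1, gave 4.16, 3.98 and 3.54 FPKM in NC and 7.78, 6.99 and 6.20 FPKM in siPSCA, a log2 fold change of 0.70 (SE 0.092, limma adjusted p = 0.00227) that was 0.42 after removal of the trend.

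CDK2, the most abundant gene of this role, gave 17.6, 18.1 and 18.4 FPKM in NC and 23.7, 22.6 and 25.3 FPKM in siPSCA, with no overlap and a log2 fold change of 0.39 (SE 0.056, limma adjusted p = 0.00307). The 2 cyclin E genes differed in level, and their calls changed places with the GC and length trend. CCNE1 gave 11.7, 11.3 and 11.7 FPKM in NC and 13.1, 15.3 and 12.9 FPKM in siPSCA, where siPSCA 2 was the highest, and its log2 fold change of 0.23 (SE 0.073) passed narrowly (limma adjusted p = 0.0418) and was no longer past the threshold when NC 1, NC 2, siPSCA 1 or siPSCA 2 was left out. CCNE2 gave 2.14, 2.65 and 2.86 FPKM in NC and 2.37, 2.37 and 2.53 FPKM in siPSCA, and all siPSCA values lay within the range of the NC values. Its log2 fold change was -0.048, with a 95% interval from -0.28 to 0.18, and INTS8 on the opposite strand covers 37.0% of its exonic bases and held 1029% as many reads. With the trend removed CCNE1 was at 0.072 and not called (limma adjusted p = 0.439), and CCNE2 was at 0.27 and called higher (limma adjusted p = 0.0274). The ratio of CCNE1 to CCNE2 was 4.61 ± 0.753 in NC and 5.70 ± 0.701 in siPSCA (SD, n = 3) and overlapped between groups.

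**Figure D2:**
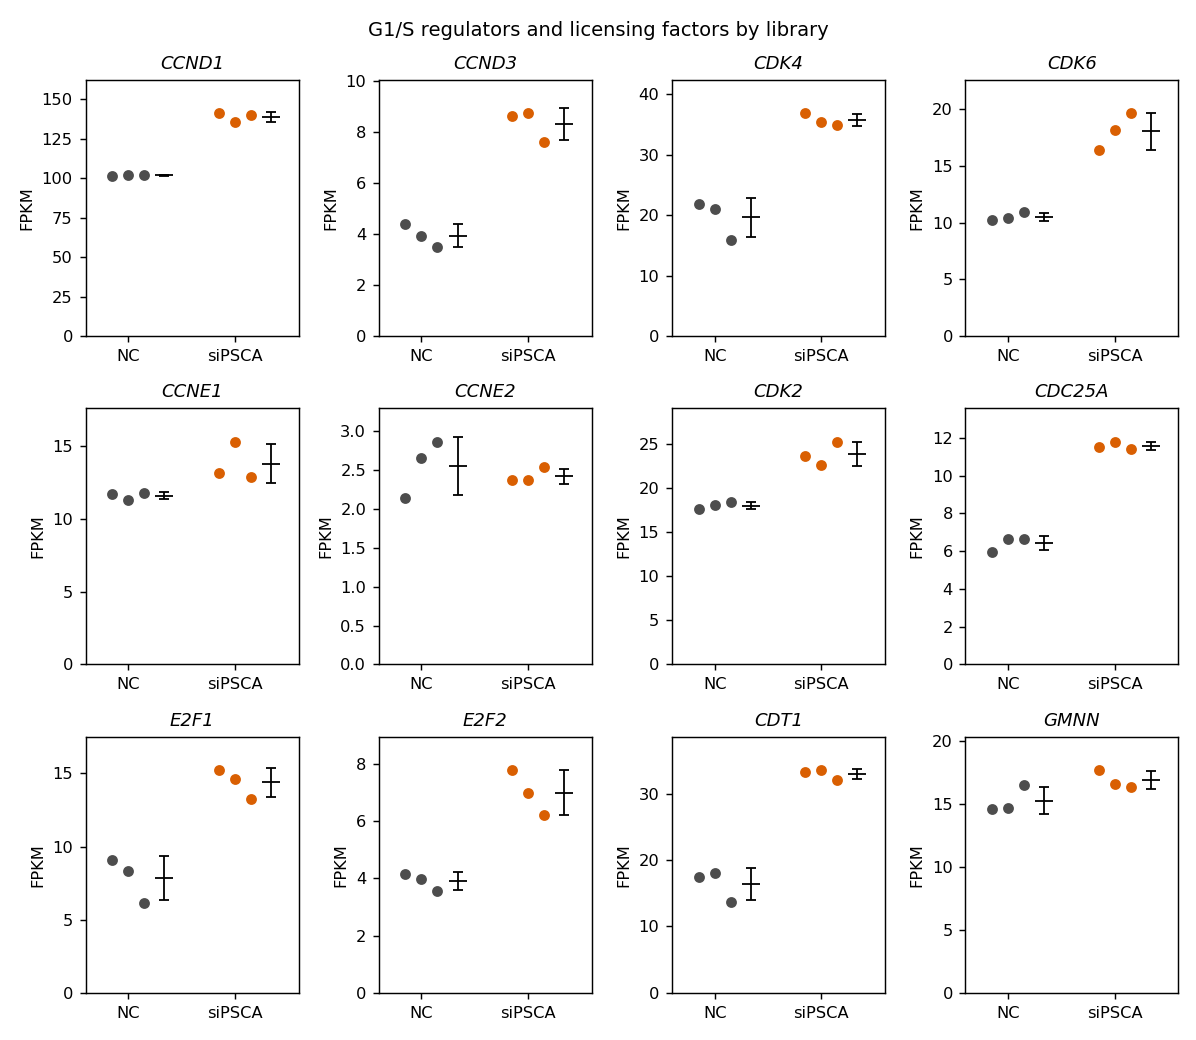
FPKM of 10 regulators of the passage from G1 into S phase and of the licensing factors CDT1 and GMNN, one panel per gene, with the NC libraries in grey and the siPSCA libraries in orange. Points are single libraries and bars the mean ± SD of 3. All siPSCA points lie above all NC points except for CCNE2 and GMNN, whose groups overlap.

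Of the 3 licensing factors, CDT1 passed the test and CDC6 and GMNN did not. CDT1 (ENSG00000167513, chr16:88803213-88809258), which brings MCM2-7 to origins, gave 17.4, 18.0 and 13.6 FPKM in NC 1, 2 and 3 and 33.3, 33.5 and 32.1 FPKM in siPSCA 1, 2 and 3. The means were 16.4 ± 2.37 and 33.0 ± 0.781 FPKM (SD, n = 3), a rise of 101%. The log2 fold change of 0.98 (SE 0.10, limma adjusted p = 0.00139) was the largest of all members on the log2(FPKM + 1) scale. In FPKM alone CCND3 rose more, by 111%, and limma-voom gave 1.11 for CCND3 and 1.05 for CDT1. CDT1 is also among the richest in GC (64.9%), and its log2 fold change was 0.32 after removal of the GC and length trend and 0.86 without NC 3. CDC6, the partner of CDT1 in loading, gave 19.2, 18.2 and 19.7 FPKM in NC and 18.7, 17.9 and 18.9 FPKM in siPSCA, and GMNN, the inhibitor of CDT1, gave 14.6, 14.7 and 16.5 FPKM in NC and 17.7, 16.6 and 16.4 FPKM in siPSCA. Both overlapped between groups, and the 95% intervals of their log2 fold changes ran from -0.16 to 0.087 and from -0.020 to 0.30. Without NC 3, GMNN passed with a log2 fold change of 0.19 (limma adjusted p = 0.0161). Removal of the GC and length trend left GMNN past the threshold as well, at 0.29 (limma adjusted p = 0.00353) beside the 0.32 of CDT1. Within a library, and with the trend left in, the ratio of CDT1 to GMNN went from 1.08 ± 0.221 in NC to 1.95 ± 0.069 in siPSCA, and that of CDC6 to CDT1 from 1.18 ± 0.227 to 0.561 ± 0.028 (SD, n = 3), both without overlap.

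The origin recognition complex, which marks the sites where replication starts, was the only role in which most called genes were lower: 3 of its 6 subunits were lower, 1 was higher and 2 did not pass, with a median log2 fold change of -0.12. ORC1, the subunit with the highest mean, gave 11.0, 11.6 and 12.2 FPKM in NC and 11.96, 13.4 and 12.9 FPKM in siPSCA; the groups overlapped and it did not pass (limma adjusted p = 0.143). ORC2 fell from 10.5 ± 0.536 to 8.60 ± 0.324 FPKM, ORC3 from 11.1 ± 1.16 to 9.24 ± 0.310 FPKM and ORC4 from 6.39 ± 0.255 to 5.26 ± 0.355 FPKM (SD, n = 3), without overlap. Their log2 fold changes were -0.26, -0.24 and -0.24, with limma adjusted p-values of 0.0125, 0.0421 and 0.0227. ORC6 rose from 7.73 ± 0.544 to 9.64 ± 0.622 FPKM (log2 fold change 0.29, limma adjusted p = 0.018), and ORC5 had 7.37 ± 0.164 and 7.36 ± 0.0807 FPKM, with a 95% interval of the log2 fold change from -0.12 to 0.11. These calls changed with the GC trend: ORC2, ORC3 and ORC4 have 40.1%, 39.4% and 37.7% GC, and with the trend removed their log2 fold changes turned to 0.053, 0.031 and 0.15 and none was called, while ORC5 was called higher at 0.23 (limma adjusted p = 0.0212). None of the 3 kept its call in every fit that left out 1 library: all 3 lost it without siPSCA 1, ORC3 and ORC4 also without NC 2 or siPSCA 2, and ORC3 without siPSCA 3. ORC6 lost its call without NC 2 or siPSCA 1.

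The sum over the ORC subunits overlapped between groups, at 54.7 ± 2.10 FPKM in NC and 52.9 ± 0.690 FPKM in siPSCA (SD, n = 3). With the GC and length trend left in, their levels spread apart. The highest subunit had 1.83 ± 0.097 times the FPKM of the lowest in NC and 2.43 ± 0.133 times in siPSCA, with no overlap. ORC1 had the highest mean and ORC4 the lowest, and with the trend removed their log2 fold changes were 0.027 and 0.15. In NC the order ran from ORC1 over ORC3, ORC2, ORC6 and ORC5 to ORC4, where ORC1 and ORC3, ORC3 and ORC2, and ORC6 and ORC5 overlapped. In siPSCA, ORC6 stood between ORC1 and ORC3 and overlapped ORC3, and the other neighbours did not overlap.

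The MCM2-7 genes encode the 6 subunits of the ring that unwinds DNA at the fork, and each was higher on average in siPSCA: 5 passed the test, and the median log2 fold change of the ring was 0.40. MCM2 (ENSG00000073111, chr3:127598223-127622436) gave 18.1, 17.6 and 18.9 FPKM in NC 1, 2 and 3 and 29.8, 28.4 and 27.3 FPKM in siPSCA 1, 2 and 3, a log2 fold change of 0.62 (SE 0.054, limma adjusted p = 0.00087). MCM5 (ENSG00000100297, chr22:35400063-35425430) gave 13.3, 15.6 and 14.8 FPKM in NC and 25.9, 26.0 and 25.0 FPKM in siPSCA, and its 0.77 (SE 0.067, limma adjusted p = 0.000807) was the largest log2 fold change of the ring. These were also the 2 subunits with the lowest levels, and neither group of libraries overlapped the other. MCM7 (ENSG00000166508, chr7:100092728-100101940), the most abundant subunit, gave 60.9, 62.0 and 56.4 FPKM in NC and 85.5, 85.2 and 83.6 FPKM in siPSCA, a log2 fold change of 0.50 (SE 0.051, limma adjusted p = 0.00128).

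MCM3 (ENSG00000112118, chr6:52264009-52284881) gave 49.9, 49.3 and 56.1 FPKM in NC and 64.0, 65.1 and 64.1 FPKM in siPSCA, and MCM4 (ENSG00000104738, chr8:47960185-47978160) gave 31.8, 34.5 and 35.2 FPKM and 39.4, 40.2 and 41.5 FPKM. Both were higher without overlap, with log2 fold changes of 0.31 (SE 0.061) and 0.25 (SE 0.055) and limma adjusted p-values of 0.00772 and 0.0122. MCM6 (ENSG00000076003, chr2:135839626-135876426) gave 32.4, 34.3 and 38.7 FPKM in NC and 39.6, 36.9 and 43.0 FPKM in siPSCA, where NC 3 lay above siPSCA 2. Its log2 fold change of 0.18 did not pass (limma adjusted p = 0.13), and the 95% interval ran from -0.032 to 0.39. Without NC 3 it was 0.25 and passed (limma adjusted p = 0.0267). With the GC and length trend removed all 6 passed, with log2 fold changes from 0.18 for MCM7 to 0.54 for MCM5; MCM2 was at 0.30 and MCM3 at 0.19.

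The FPKM of the 6 subunits summed to 207, 213 and 220.1 in NC and to 284, 282 and 285 in siPSCA, so the sum was 1.33 times higher and did not overlap between groups. The spread within the ring narrowed at the same time. MCM7 had 4.11 ± 0.403 times the level of MCM5 in NC and 3.31 ± 0.034 times in siPSCA (SD, n = 3), again without overlap. MCM7, MCM3, MCM2 and MCM5 held the same ranks in both groups, whereas MCM4 and MCM6 overlapped in each group.

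**Figure D3:**
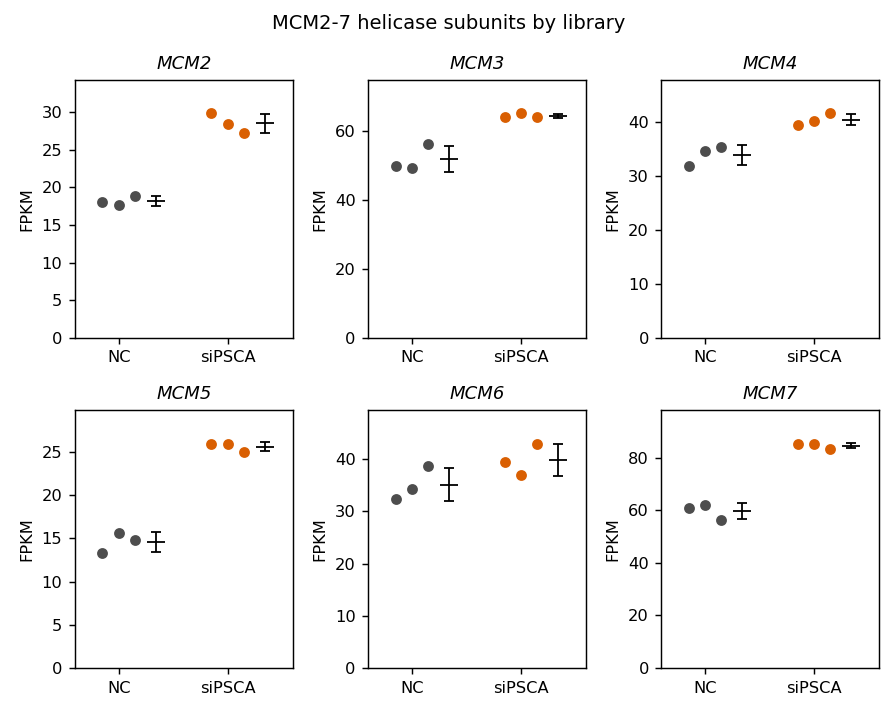
FPKM of the 6 MCM2-7 subunits, one panel per gene, with the NC libraries in grey and the siPSCA libraries in orange. Points are single libraries and bars the mean ± SD of 3. The groups are separate for every subunit except MCM6, where NC 3 at 38.7 FPKM lies above siPSCA 2 at 36.9 FPKM.

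The genes that turn the loaded ring into a moving helicase were higher as well: 5 of 6 passed, with a median log2 fold change of 0.27, and the groups did not overlap for any of the 6. Of all tested genes, 50.7% passed and 64.5% did not overlap. GINS1, the most abundant of them, gave 10.1, 11.0 and 9.85 FPKM in NC and 13.3, 11.9 and 12.9 FPKM in siPSCA. CDC45 had the largest log2 fold change of this role, 0.42 (SE 0.069, limma adjusted p = 0.00451), followed by GINS2 at 0.40, GINS1 at 0.28, GINS4 at 0.25 and MCM10, which helps the helicase to fire, at 0.24. GINS3, at 2.67 ± 0.334 and 3.15 ± 0.222 FPKM, did not pass (limma adjusted p = 0.143). With the GC and length trend removed all 6 passed, GINS1 at 0.51, MCM10 at 0.44 and GINS3 at 0.36. For 3 of the 5 the call did not hold with a library left out: GINS1 lost its call without siPSCA 1, GINS4 without NC 2 or any siPSCA library, and MCM10 without NC 1, NC 2 or any siPSCA library. The 4 GINS genes together gave 25.4 ± 0.561 FPKM in NC and 32.4 ± 1.05 FPKM in siPSCA (SD, n = 3), 1.27 times as much.

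Among the polymerase genes, 3 genes of the delta and epsilon enzymes rose, and those of polymerase alpha and primase did not pass. After removal of the GC and length trend 6 of the 8 tested were higher, primase subunit PRIM2 among them. The median log2 fold change of the 8 tested was 0.099. POLD2 (ENSG00000106628, chr7:44114681-44124358), an accessory subunit of polymerase delta, gave 23.8, 23.5 and 20.2 FPKM in NC and 39.3, 39.4 and 38.9 FPKM in siPSCA, a log2 fold change of 0.78 (SE 0.071, limma adjusted p = 0.000945) that was 0.38 after removal of the trend. POLD1 (ENSG00000062822, chr19:50384204-50418016), its catalytic subunit, gave 10.5, 9.12 and 6.12 FPKM in NC and 15.9, 16.5 and 15.1 FPKM in siPSCA. The NC libraries of POLD1 were spread widely, with NC 3 the lowest, and the log2 fold change of 0.84 (SE 0.17, limma adjusted p = 0.0093) was 0.22 after removal of the GC and length trend and 0.64 without NC 3. POLE, the catalytic subunit of polymerase epsilon, rose from 8.59 ± 0.0773 to 12.6 ± 0.278 FPKM, with a log2 fold change of 0.50 (limma adjusted p = 0.000954).

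POLA1, the catalytic subunit of polymerase alpha, had 7.99 ± 1.17 FPKM in NC and 6.77 ± 0.414 FPKM in siPSCA and did not pass (log2 fold change -0.20, 95% interval from -0.45 to 0.043). Its primase partners PRIM1 and PRIM2 had log2 fold changes of -0.011 and 0.0011, and the accessory subunits POLD3 and POLE2 0.084 and 0.11, none past the threshold. With the trend removed PRIM2, POLD3 and POLE2 passed, at 0.24, 0.29 and 0.25 (limma adjusted p = 0.0457, 0.0467 and 0.0322), and POLA1 and PRIM1, at 0.022 and 0.25, did not. POLA2, which encodes the regulatory subunit of polymerase alpha, was the member under the level needed for the test. It had 0.468, 0.682 and 0.801 FPKM in NC and 1.21, 1.26 and 0.939 FPKM in siPSCA, from 45, 68 and 79 reads against 117, 128 and 98. The groups did not overlap, but when the model was fitted without the minimum, to 34391 genes, its log2 fold change of 0.37 did not pass (limma adjusted p = 0.12). Within a library, and with the trend left in, the ratio of POLD1 to POLA1 went from 1.11 ± 0.419 in NC to 2.35 ± 0.229 in siPSCA (SD, n = 3). The siPSCA mean was 2.11 times the NC mean, and 1.75 times without NC 3, which had the lowest ratio (0.66). With the trend removed the log2 fold changes of POLD1 and POLA1 were 0.22 and 0.022.

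PCNA rose and the large subunit of its loader fell. PCNA (ENSG00000132646, chr20:5114953-5126626), the sliding clamp and the most abundant of all 55 members, gave 125, 124 and 134 FPKM in NC and 157, 157 and 156 FPKM in siPSCA. The 3 siPSCA libraries were close together and above all NC libraries, and the log2 fold change was 0.30 (SE 0.049, limma adjusted p = 0.00451) and 0.45 with the GC and length trend removed. RFC1, the large subunit of the loader, was the member that fell most: it gave 20.8, 20.0 and 23.7 FPKM in NC and 15.5, 16.0 and 17.4 FPKM in siPSCA, a log2 fold change of -0.38 (SE 0.079, limma adjusted p = 0.00999). With the GC and length trend removed it was -0.10 and not called. RFC5 rose by 0.22 on the log2 scale (limma adjusted p = 0.0312), a call that was lost without NC 1 or any siPSCA library, and RFC2, RFC3 and RFC4 did not pass, at 0.044, -0.073 and -0.014. RFC1 had 1.39 ± 0.120 times the mean level of RFC2 to RFC5 in NC and 1.01 ± 0.075 times in siPSCA (SD, n = 3).

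Of the 3 subunits of RPA, only RPA2 passed. RPA1 gave 32.2, 32.7 and 39.1 FPKM in NC and 37.5, 36.8 and 37.2 FPKM in siPSCA, and NC 3 lay above all siPSCA libraries. RPA2 rose from 31.2 ± 1.95 to 36.1 ± 0.753 FPKM (SD, n = 3), with a log2 fold change of 0.20 (limma adjusted p = 0.027), and RPA1 and RPA3 stood at 0.10 and 0.18. The call of RPA2 was lost without NC 1, NC 2 or any siPSCA library, and without NC 3 RPA1 passed at 0.19 (limma adjusted p = 0.00408). The 2 genes that finish the lagging strand both rose. FEN1, the nuclease that trims flaps of Okazaki fragments, gave 39.0, 38.4 and 39.5 FPKM in NC and 59.1, 58.9 and 57.0 FPKM in siPSCA, a log2 fold change of 0.57 (SE 0.042) with the smallest adjusted p of all members (limma, 0.000598). LIG1 (ENSG00000105486, chr19:48115445-48170603), the ligase that joins the fragments, gave 8.15, 8.78 and 7.33 FPKM in NC and 13.9, 12.8 and 12.4 FPKM in siPSCA, a log2 fold change of 0.63 (SE 0.078, limma adjusted p = 0.00197) that was 0.40 after removal of the trend.

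Of the 4 genes of nucleotide supply, the salvage enzyme TK1 passed and the other 3 did not, and these calls changed with the GC and length trend. TK1, thymidine kinase, gave 77.5, 72.9 and 61.9 FPKM in NC and 111, 109 and 104 FPKM in siPSCA. It rose by 52.8%, with no overlap and a log2 fold change of 0.61 (SE 0.088, limma adjusted p = 0.00301). Its transcript has 62.8% GC, and after removal of the GC and length trend the log2 fold change was 0.10 and no longer past the threshold (limma adjusted p = 0.093). The subunits of ribonucleotide reductase, which makes deoxynucleotides, did not pass with the trend left in: RRM1 had 30.7 ± 2.46 and 31.5 ± 1.83 FPKM and RRM2 32.1 ± 2.34 and 33.4 ± 0.921 FPKM in NC and siPSCA. With the trend removed both passed, RRM1 at 0.19 and RRM2 at 0.15 (limma adjusted p = 0.018 and 0.0215). TYMS, thymidylate synthase, had 17.4 ± 2.23 and 18.6 ± 0.380 FPKM. ENOSF1 on the opposite strand covers 39.1% of its exonic bases and held 136% as many reads. Without NC 3, TYMS passed at 0.20 (limma adjusted p = 0.00778). The 95% intervals of the log2 fold changes of RRM1, RRM2 and TYMS over all libraries, with the trend left in, ran from -0.15 to 0.22, from -0.10 to 0.21 and from -0.12 to 0.32, and the ratio of RRM2 to RRM1 was 1.05 ± 0.040 in NC and 1.06 ± 0.044 in siPSCA (SD, n = 3).

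**Figure D4:**
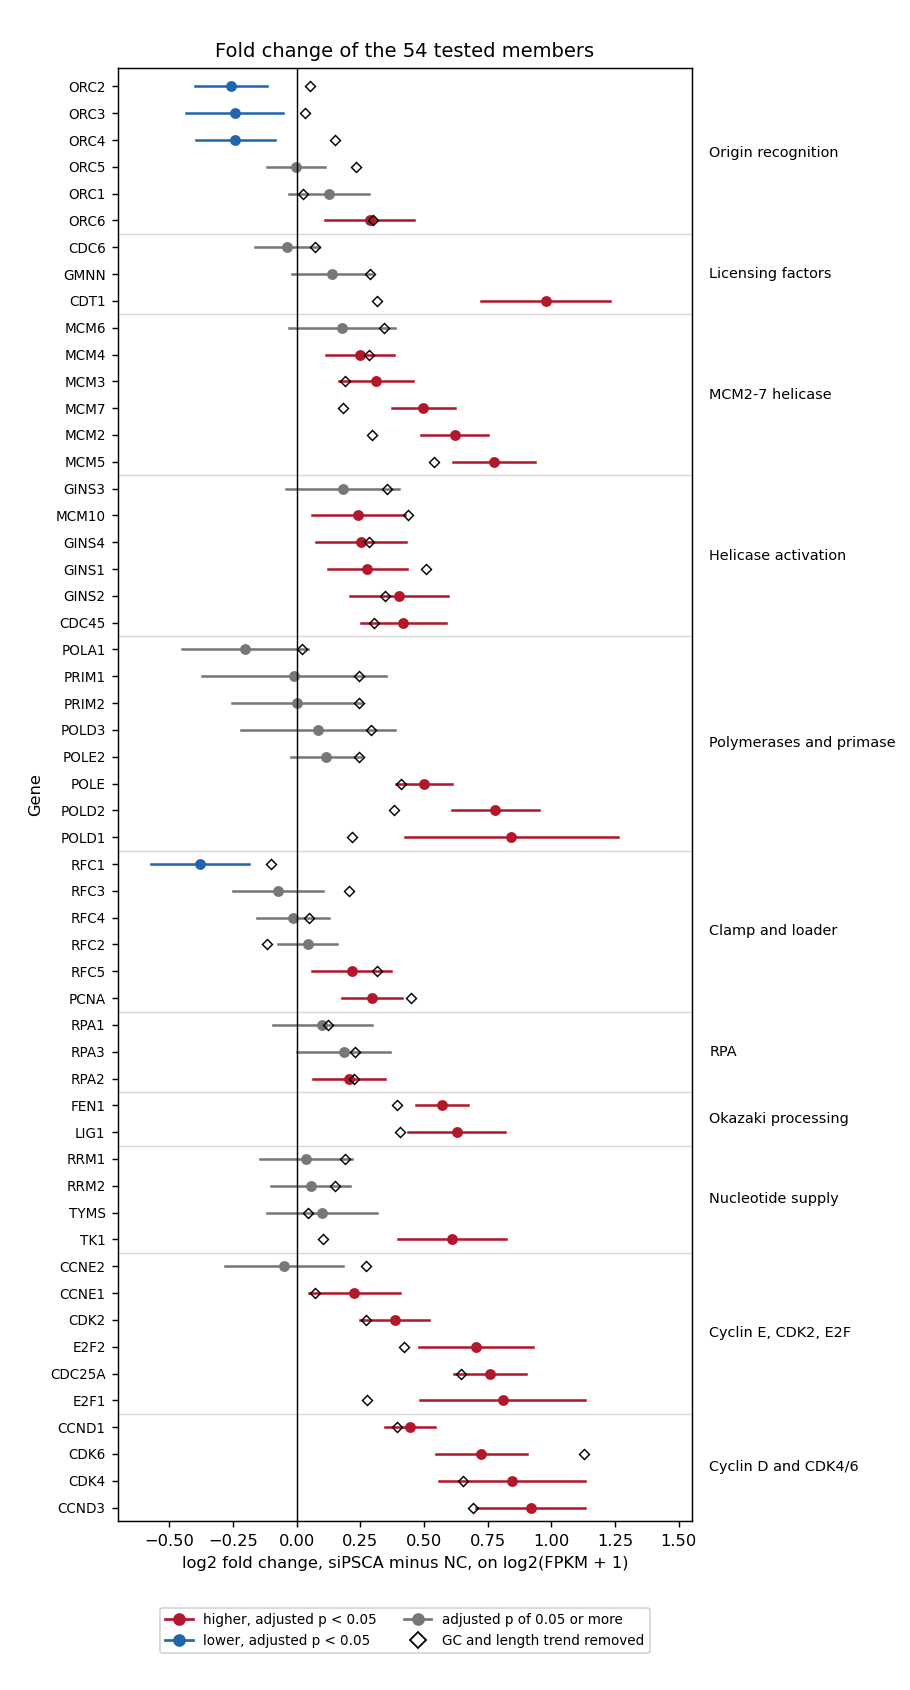
Log2 fold change of each of the 54 tested genes, siPSCA minus NC on log2(FPKM + 1), grouped by role; filled points are limma estimates with their 95% intervals, red for higher, blue for lower and grey for adjusted p of 0.05 or more. Open diamonds give the estimate after removal of the GC and length trend. The filled points run from -0.38 for RFC1 to 0.98 for CDT1, and only RFC1 and RFC2 have a diamond below 0.

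The other genes of the pathway, 67 genes of origin firing, fork accessory proteins, nucleotide metabolism and G1/S control, were divided between both directions. Of the 63 tested, 20 were higher, 16 lower and 27 did not pass. These were 31.7% higher and 25.4% lower, beside 26.6% and 24.2% of all genes. In all, 57.1% were called beside 50.7% of all genes, and their median log2 fold change was 0.078. By class, firing factors had 4 higher and 3 lower of 15, accessory proteins 6 and 3 of 14, nucleotide enzymes 3 and 1 of 8, and G1/S regulators 7 and 9 of 26. With the GC and length trend removed, 28 were higher and 6 lower, beside 23.6% and 16.5% of all genes.

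The largest rises among these were in CHTF8 and CHTF18, partners in an alternative clamp loader, in RECQL4, a helicase needed for origin firing, and in CDKN1A. CHTF8 went from 17.3 ± 3.59 to 40.3 ± 2.34 FPKM, RECQL4 from 18.4 ± 5.48 to 41.8 ± 3.02 FPKM and CHTF18 from 6.26 ± 2.04 to 13.4 ± 0.948 FPKM (SD, n = 3), with log2 fold changes of 1.20, 1.18 and 1.03 and limma adjusted p-values of 0.00198, 0.00625 and 0.0101. After removal of the trend they were 0.94, 0.51 and 0.42 and still called higher. Without NC 3, and with the trend left in, they were 1.02, 0.93 and 0.77. CDKN1A, which encodes the CDK inhibitor p21, gave 111, 109.7 and 78.0 FPKM in NC and 182, 180.2 and 169 FPKM in siPSCA. No NC library reached the level of a siPSCA library, and it rose with a log2 fold change of 0.84 (SE 0.14, limma adjusted p = 0.00457) that was 0.48 after removal of the trend and 0.68 without NC 3. CDKN1B, which encodes the inhibitor p27, rose from 15.8 ± 0.321 to 18.8 ± 0.859 FPKM (0.24, limma adjusted p = 0.0113). With the trend left in, the ratio of CDKN1A to CCND1 went from 0.978 ± 0.185 in NC to 1.28 ± 0.062 in siPSCA (SD, n = 3). The siPSCA mean was 1.30 times the NC mean, and 1.18 times without NC 3, which had the lowest ratio (0.76). With the trend removed the log2 fold changes of CDKN1A and CCND1 were 0.48 and 0.39.

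The largest falls were in TOP1 and TOP2A, the topoisomerases that relieve twist ahead of and behind the fork, in ATAD5, which unloads PCNA, and in E2F5. TOP1 went from 124 ± 19.6 to 79.7 ± 1.84 FPKM (log2 fold change -0.63, limma adjusted p = 0.00525), and NC 3 was its highest library. Without NC 3 its log2 fold change was -0.50. ATAD5, TOP2A and E2F5 had log2 fold changes of -0.53, -0.45 and -0.42, with limma adjusted p-values of 0.00844, 0.00146 and 0.00735. All 3 calls were lost with the GC and length trend removed, where the values were -0.16, -0.11 and -0.070 (limma adjusted p = 0.356, 0.0702 and 0.345), and TOP1 was at -0.43 and still called lower. RB1, the gate that holds E2F, fell from 14.1 ± 1.09 to 11.0 ± 0.559 FPKM (-0.33, limma adjusted p = 0.0105), a call that was lost at 0.031 after removal of the trend. MKI67, a marker of cycling cells, gave 41.4, 42.7 and 50.5 FPKM in NC and 31.5, 35.4 and 37.4 FPKM in siPSCA. Its level was thus lower in siPSCA without overlap (log2 fold change -0.36, SE 0.10, limma adjusted p = 0.025), the opposite direction to MCM2, PCNA and the other rising members, and it was -0.25 after removal of the trend. The call of MKI67 was lost without siPSCA 1 or siPSCA 2.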

How the data were processed

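RNA of 3 NC and 3 siPSCA libraries of HCT116SCs was compared, grouped by the sample labels. Of the titles of siPSCA 2 and siPSCA 3, each names another number after HCT, whereas all other labels name HCT116, so both libraries were kept. The authors deposited FPKM values for 58735 genes, whose positions are those of GENCODE release 29 on GRCh38. The NEBNext Ultra kit was named for the libraries, and the aligner, the counting program and the strand setting are not given in the sources used here. FPKM times gene length was a whole multiple of 1 step in each library for 100% of values (tolerance 0.05 of a read), so reads per gene were recovered, out of library totals of 16803235 to 18218661. Reads without molecular identifiers are not independent molecules.

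Group was the single term of a linear model in limma 3.58.1 (R 4.3.3; lmFit and eBayes with trend) on log2(FPKM + 1). The 13796 genes whose FPKM averaged 1 or more entered it, with Benjamini-Hochberg adjustment over all of them, and POLA2 and PSCA came from a fit without this minimum (34391 genes). Tables were handled in Python 3.11.15 with pandas 2.3.3 and numpy 2.4.6. GC content came from the longest transcript of each gene, and the GC and length trend was a natural spline with 5 degrees of freedom for each, fitted per library. The model was also run on simulated counts. These held no trend with GC content and no library that stood apart as NC 3 does, so that run does not bear on either feature.

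The members and the lists of other genes were chosen with earlier results of these data known. Values in every library were given for the 12 members with the largest log2 fold change past the threshold, the most abundant member of each role, MCM2-7, the G1 cyclins and E2F genes, and POLA2; of the other genes, the 4 largest rises and falls were named, with MKI67, RB1, CDKN1A and CDKN1B. All 55 members could be named. The alternatives were a pseudocount of 0.1, an FPKM minimum of 5 or none, TPM, median centring, limma-voom on recovered reads, removal of the GC and length trend, the replicate number as a block, each library left out in turn, and a rule of unadjusted p with a log2 fold change beyond 0.5. Removal of the trend with NC 3 left out was added after the data had been seen.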

Additional observations from a re-analysis of the deposited data

How the results depend on the processing

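Under the 16 alternatives that refitted the model the median log2 fold change of the tested members stayed between 0.18 and 0.28 (main value 0.23). The median over all tested genes ran from -0.062 with TPM to 0.050 with the trend removed. Of the 34 called members, 19 kept their direction and their call in all 16 alternatives. Of these 19, 12 also passed under an unadjusted p with a log2 fold change beyond 0.5. The 4 lower members became 2 with no FPKM minimum and 0 with the GC and length trend removed, with the replicate block and the trend removed, with the trend removed and NC 3 left out, and under unadjusted p with a log2 fold change beyond 0.5. That last rule gave 14 members in all, each of them higher, and 14 of the other genes of the pathway in place of 36, and 3434 of all genes in place of 7001. Members higher were 38 with the trend removed and 39 with NC 3 left out as well, so that the share of called members that were higher went from 88.2% to 100%. The share over all called genes went up too, from 52.4% to 58.9% with the trend removed and 56.8% with NC 3 left out as well. Leaving out 1 library gave 23 to 34 higher members, 24 to 38 called in all, 1 to 4 lower members (1 without siPSCA 1, 2 without NC 2 or siPSCA 2), 26 to 39 other genes and 4610 to 7410 of all genes (4610 without siPSCA 1). The cause of these changes was not tested.

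With the replicate number as a block, 27 members were higher and 3 lower, 30 in all, and 6725 of all genes passed; block and trend removal together gave 33 higher members and 4641 of all genes. Libraries with the same number deviated together with correlations of 0.0955, 0.0132 and 0.134, not all over 0.1, so the numbers were not taken as pairs; numbers 1 and 3 correlated best with their own number and number 2 did not.

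With the trend removed, with or without the block, the sign turned for ORC2 (0.053), ORC3 (0.031), ORC4 (0.15), ORC5 (0.23), CDC6 (0.072), POLA1 (0.022), PRIM1 (0.25), RFC2 (-0.12), RFC3 (0.21), RFC4 (0.048), CCNE2 (0.27) and RB1 (0.031). With NC 3 left out as well, the values were ORC2 0.032, ORC3 0.053, ORC4 0.095, ORC5 0.18, CDC6 0.050, POLA1 0.071, PRIM1 0.32, RFC2 -0.12, RFC3 0.19, RFC4 0.016 and CCNE2 0.28. Under limma-voom ORC5 (0.024), PRIM1 (0.015) and RFC4 (0.010) turned. TPM turned PRIM2 (-0.045), RFC2 (-0.0016) and RRM1 (-0.011), and median centring turned PRIM2 (-0.050), RFC2 (-0.0072) and RRM1 (-0.015). Leaving out 1 library gave ranges across 0 for ORC5 (-0.018 to 0.0088), PRIM1 (-0.16 to 0.11), PRIM2 (-0.070 to 0.090), POLD3 (-0.035 to 0.20), RRM1 (-0.0030 to 0.099), RFC4 (-0.054 to 0.031) and CCNE2 (-0.13 to 0.015). Of all these genes only ORC2, ORC3, ORC4 and RB1 were called in the first place.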

Other observations

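Several members share exonic bases with a neighbour, and the strand of counting is not given in the sources used here, so reads of either gene may have been counted for the other. On the opposite strand, AC023593.1 covers 22.7% of MCM2 with 52 reads, AC009630.2 covers 21.2% of GINS4 with 28 reads, and LTO1 covers 10.3% of CCND1 with 1854 reads. Other neighbours on that strand share fewer bases but held many reads. WSB2 covers 5.72% of RFC5 with 7252 reads and TMEM258 6.70% of FEN1 with 3251. TPRA1 covers 0.918% of MCM2 with 2912 reads and AP4M1 8.94% of MCM7 with 1571. On the same strand, AP000944.2 covers 35.1% of POLA2 with 59 reads beside 535 of POLA2, and AC007240.1 covers 20.2% of RRM2 with 48 reads. FADS2, also on the same strand, covers 1.98% of FEN1 with 1858 reads. Pseudogene copies took few reads: POLD2P1 had 2 beside 11937 of POLD2, PCNAP3 had 1 beside 21827 of PCNA, and RRM2P3 had 2 and RRM2P2 1 beside 18215 of RRM2.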
